A study of Mus musculus with 8 samples.

Results

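The EGF receptor family and its ligands were examined in fresh crypt preparations of mouse small intestine (SI) and colon (COL). The 10 genes were taken by symbol from a list, not by a rule on their values, but earlier results of these data were known. All 10 were found among the 45706 Ensembl genes of the count tables. They comprise the receptors Egfr, Erbb2 and Erbb3, the ligands Egf, Areg, Ereg, Btc, Tgfa and Hbegf, and the inhibitor Lrig1. The libraries came from 4 wild-type C57BL/6N mice, 2 female and 2 male, for which the labels name no treatment, with both tissues taken from every mouse. The libraries are called SI1 to SI4 and COL1 to COL4 by replicate. Replicates 1 and 4 (donor mice 1 and 5) were female and replicates 2 and 3 (donor mice 2 and 3) male. The age of the mice is not given in the sources used here. In the isolation protocol, which is described for organoid culture, the proximal SI was used, villi were scraped off before the EDTA step, and the colon was kept in more EDTA for longer.

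ErbB receptors are tyrosine kinases of the cell surface that work in pairs. EGFR binds EGF, amphiregulin (Areg), epiregulin (Ereg), betacellulin (Btc), TGF-alpha (Tgfa) and HB-EGF (Hbegf). ERBB2 has no known ligand and serves as a partner, and ERBB3 binds neuregulins, has little kinase activity of its own and recruits PI3 kinase. The ligands are made as membrane-bound precursors and cut loose by metalloproteases. LRIG1 is a membrane protein that promotes the loss of ErbB receptors from the cell surface and marks stem and progenitor cells of the crypt. EGF is a standard component of intestinal organoid medium.

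Total counts ranged from 15969428 to 32908060 per library. Transcripts of the mitochondrial genome made up 22.7% to 50.8% of all counts in 4 libraries (SI2, SI3, COL1, COL2) and 4.83% to 7.35% in the remaining 4. In SI this division coincides with sex, so mitochondrial share and sex cannot be told apart there. All 6 epithelial markers, Krt8 and Krt19 among them, were detected in every library, with summed levels of 7834 to 12200 CPM in SI and 4164 to 12700 CPM in COL (CPM, counts scaled to a TMM-adjusted library size). The 8 Paneth cell markers, among them Defa24 and Itln1, summed to 607 to 4693 CPM in SI and 26.2 to 96.3 CPM in COL. Of these 8, 6 were called higher in SI and 2, Ang4 and Pla2g2a, were not called. Ang4 was at 6.93 to 48.2 CPM in SI and 10.6 to 68.9 CPM in COL. The 7 markers of villus enterocytes, such as Apoa1 and Anpep, summed to 42030 to 110800 CPM in SI, highest in SI1, and to 18.1 to 140.3 CPM in COL, so transcripts of villus cells were abundant in the SI crypt preparations. Stroma and muscle markers were low, at 5.08 to 17.2 CPM in SI and 10.1 to 26.0 CPM in COL summed over 11 genes, and the 11 immune markers summed to 44.1 to 113.9 CPM in SI and 15.9 to 46.7 CPM in COL. The 7 goblet and deep crypt secretory markers summed to 2429 to 7535 CPM in SI and 12220 to 23720 CPM in COL, of which Muc2 made up most in COL (379.0 to 987.5 CPM in SI and 7718 to 16200 CPM in COL). Of these 7, 4 were called higher in COL and 3 were not called, among them Fcgbp, at 1141 to 3930 CPM in SI and 1452 to 1548 CPM in COL. Enteroendocrine markers (Chgb, Chga) summed to 243.8 to 314.9 and 190.6 to 626.2 CPM, and tuft cell markers (Avil, Trpm5) to 39.1 to 72.0 and 38.8 to 50.9 CPM. The part of these cell types in the differences below was not tested.

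Differences between SI and COL were tested with edgeR (quasi-likelihood F-test, Benjamini-Hochberg adjustment) on the 14491 genes that passed the filter on low counts, all 10 family genes among them, at a threshold of 0.05. Erbb3 was 2.59-fold higher in SI, whereas Lrig1 was 4.82-fold and Egf 6.12-fold higher in COL. These 3 of 10 genes were called, against 28.4% of all genes tested (15.5% higher in SI and 12.9% higher in COL), so the share of the family that differed was close to that of the transcriptome. In 4 of the 10, namely Lrig1, Egf, Egfr and Ereg, the SI and COL values did not overlap, against 33.5% of all genes tested. The median log2 fold change of SI over COL (log2FC) was -0.15 over the family and -0.09 over all genes tested. With the donor mouse as a block in edgeR, 3 family genes were called as well, against 28.1% of all genes, but Hbegf took the place of Erbb3.

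**Figure D1:**
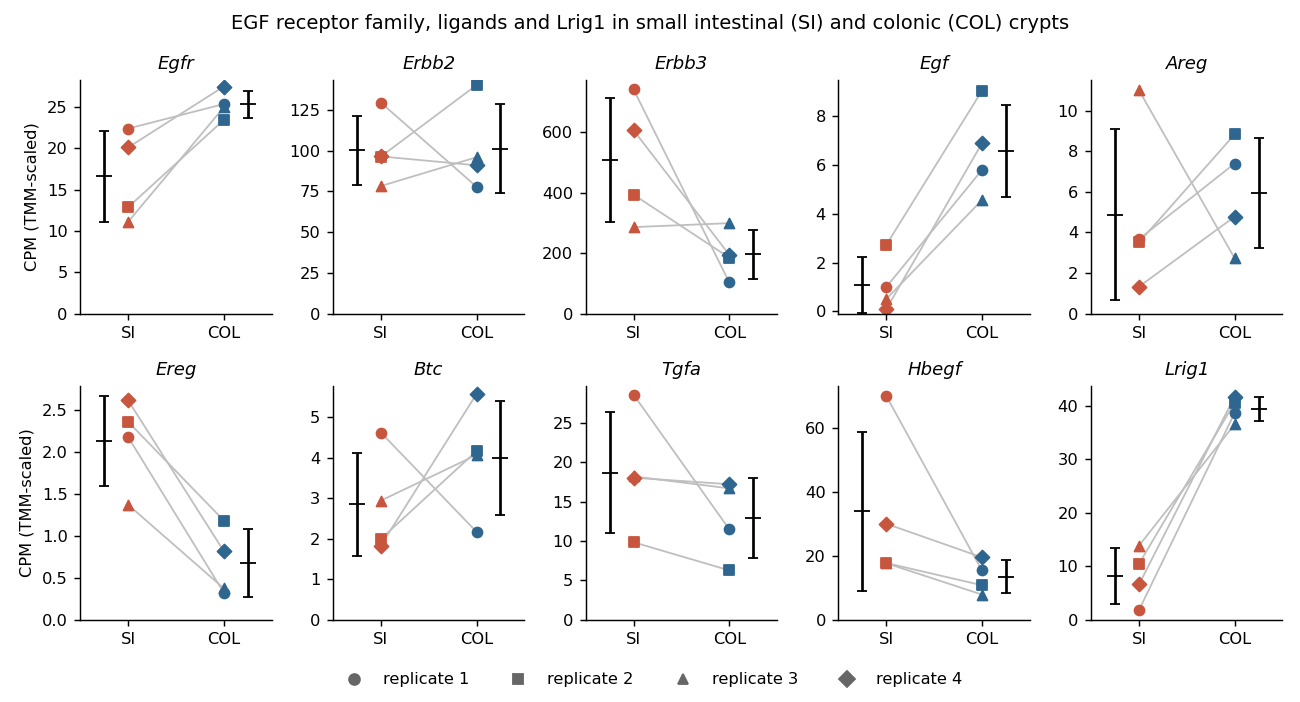
CPM of the 10 genes in each library (red, SI; blue, COL), with grey lines joining the 2 libraries of a mouse and black bars giving mean ± SD of 4 libraries; each panel has its own linear axis. Lrig1 and Egf lay lower in SI in every mouse, and Erbb3 was higher in SI in 3 of 4 mice.

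Among the receptors, Erbb3 had by far the most counts, 2979 to 16363 per library. Its level was 741.2, 393.2, 286.0 and 606.3 CPM in SI1 to SI4 and 103.6, 185.2, 299.1 and 194.8 CPM in COL1 to COL4. The lowest SI library, SI3, lay just below the highest COL library, COL3, which came from the same mouse, and the other libraries did not overlap. The mean was 506.7 ± 205.3 CPM in SI against 195.7 ± 80.2 CPM in COL (SD, n = 4), a log2FC of 1.37 (SE, the standard error, 0.42, adjusted p = 0.0317, edgeR). This call depended on the fit. When the donor mouse was a block, the adjusted p was 0.0774 in edgeR and 0.0365 in limma-voom. In edgeR it was 0.249 with scaling by library size alone. It was 0.0908, 0.0823, 0.0842 and 0.0714 in edgeR without SI1, SI4, COL1 and COL4 in turn.

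Erbb2, the ligandless partner, was at 129.4, 96.3, 78.2 and 96.4 CPM in SI1 to SI4 and at 77.8, 140.1, 95.9 and 91.0 CPM in COL1 to COL4. The ranges overlapped almost entirely, and SI was higher in the 2 female mice and lower in the 2 male mice. The log2FC was -0.02 (SE 0.28, 95% confidence interval, CI, -0.63 to 0.60, adjusted p = 0.973, edgeR), so that a difference of more than about 0.63 in either direction lay outside the interval.

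Egfr itself was far lower in counts, 213 to 1312 per library. It reached 22.4, 12.9, 11.1 and 20.1 CPM in SI1 to SI4 and 25.3, 23.4, 24.96 and 27.5 CPM in COL1 to COL4. Every SI library was below every COL library, and the COL libraries lay close together, at 25.3 ± 1.67 CPM against 16.6 ± 5.47 CPM in SI (SD, n = 4). The log2FC of -0.61 (SE 0.28, 95% CI -1.22 to 0.005) was nevertheless not past the threshold, at an adjusted p of 0.129. It was past it with the mitochondrial share as a covariate (adjusted p = 0.0354, edgeR) and with scaling by library size alone (adjusted p = 0.00528), which shifted the median log2FC of all genes to -0.82.

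To compare the receptors with each other, CPM was divided by exon length in kb. On this scale Erbb3 was above Erbb2 and Erbb2 above Egfr in all 8 libraries. Erbb3 was at 84.2 ± 34.1 CPM per kb in SI and 32.5 ± 13.3 in COL, Erbb2 at 19.2 ± 4.09 and 19.4 ± 5.19, and Egfr at 1.47 ± 0.48 and 2.23 ± 0.15 (SD, n = 4). Within each library, where the scaling between libraries has no influence, Erbb3 exceeded Egfr 48.5- to 62.4-fold in SI and 7.70- to 22.6-fold in COL. The ratio of Erbb3 to Erbb2 was 3.17 to 5.45 in SI and 1.14 to 2.70 in COL. Neither ratio overlapped between the tissues. The ratio of Erbb2 to Egfr did overlap, at 10.4 to 16.3 in SI and 6.67 to 13.0 in COL. Erbb3 made up 79.3% ± 4.05 of the summed level of the 3 receptors in SI and 58.6% ± 9.67 in COL, while Egfr took 1.42% ± 0.11 in SI against 4.44% ± 1.52 in COL (SD, n = 4). These shares are a description and were not tested.

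**Figure D2:**
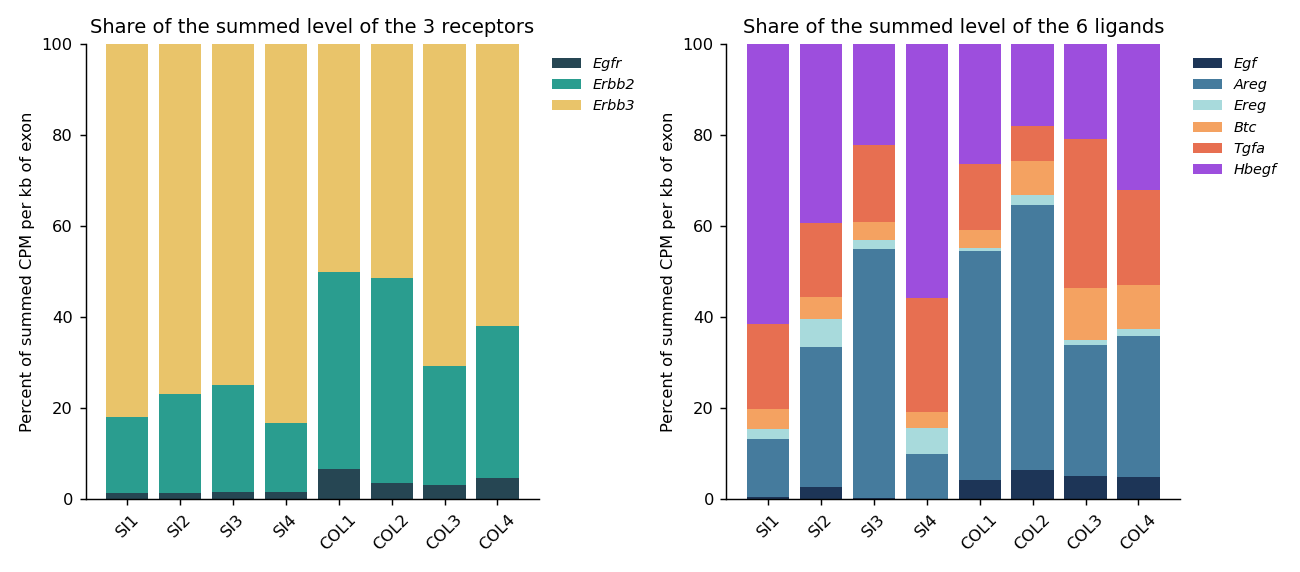
Share of each gene, in percent, of the summed CPM per kb of exon of the 3 receptors (left) and of the 6 ligands (right), for each of the 8 libraries. Erbb3 took 74.8% to 83.3% of the receptor sum in the SI libraries and 50.1% to 70.7% in the COL libraries, and Egf took 0.073% to 2.58% of the ligand sum in SI and 4.23% to 6.41% in COL.

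Lrig1, the inhibitor, was the gene of the family called in every fit. Its level was 1.81, 10.45, 13.8 and 6.59 CPM in SI1 to SI4, on 40 to 273 counts, and 38.6, 40.5, 36.5 and 41.7 CPM in COL1 to COL4, on 652 to 1990 counts. All COL libraries were thus far above all SI libraries and within a narrow range, while SI libraries differed widely among themselves. The mean was 8.17 ± 5.17 CPM in SI against 39.3 ± 2.28 CPM in COL (SD, n = 4), a log2FC of -2.27 (SE 0.48, adjusted p = 0.00459, edgeR). Lrig1 was lower in SI in all 4 mice and passed the threshold in all 21 alternatives, including the one against a log2 change of 1 (adjusted p = 0.0262, edgeR). The 5 stem cell markers summed to 30.7 CPM in SI1, 217.0 to 310.4 CPM in SI2 to SI4 and 39.0 to 54.5 CPM in COL, and the differences between these sums came mostly from Olfm4, at 9.74 CPM in SI1, 161.0 to 254.4 CPM in SI2 to SI4 and 0 to 3.50 CPM in COL. Lgr5 and Ascl2, named here after their values were seen, were lower in every SI library than in any COL library. They were at 0.63 to 11.15 against 11.53 to 16.1 CPM and at 0 to 1.57 against 2.46 to 3.85 CPM. Neither passed the threshold (adjusted p = 0.293 and 0.238, edgeR), and 33.5% of all genes tested had no overlap between the tissues. Axin2 was at 18.4 to 29.1 CPM in SI and 11.96 to 20.6 CPM in COL. Smoc2 was at 1.90 to 23.0 CPM in SI and 11.7 to 18.4 CPM in COL, so both overlapped between the tissues. The part of stem cells in the Lrig1 difference was not tested. Per kb of exon, Lrig1 came after Erbb3 and Erbb2 in COL, and the ratio of Egfr to Lrig1 was 0.40 to 6.09 in SI and 0.29 to 0.34 in COL, without overlap.

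Egf was the lowest of the 10 genes in SI per kb of exon. It had 22, 45, 10 and 2 counts in SI1 to SI4, or 1.00, 2.72, 0.51 and 0.092 CPM, and 197, 145, 170 and 328 counts in COL1 to COL4, or 5.78, 9.01, 4.55 and 6.87 CPM. No SI library reached the lowest COL library, and SI4 was below 3 counts, the number taken as the limit of detection. The mean was 1.08 ± 1.154 CPM in SI against 6.55 ± 1.90 CPM in COL (SD, n = 4), a log2FC of -2.61 (SE 0.75, adjusted p = 0.022, edgeR). Without SI3 the adjusted p was 0.06, and without SI2, the SI library with the most Egf counts, the log2FC was -3.59. Of the Egf exons, 9.82% lie opposite to exons of the genes 6330410L21Rik and Gm42697, which had at most 4 and 11 counts in any library. Of the 50-base stretches of the longest Egf transcript, 19.5% also occur, on either strand, in transcripts of other genes. This was the highest share in the family, before Ereg at 2.26%, and its effect on the counts was not tested. The 3 markers of Brunner's glands, a duodenal source of EGF (Muc6 and Tff2 among them), summed to 0.18 to 2.42 CPM in SI and 0.62 to 3.70 CPM in COL, and were thus near absent from both.

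Lrig1 (chromosome 6, 94604529 to 94700158, minus strand) and Egf (chromosome 3, 129677565 to 129755316, minus strand) are the 2 genes of the family that were lower in SI and past the threshold. The 250 bases before their RefSeq starts (GRCm38.p6) are shown to give the sequence at which each transcript begins. The 2 genes share the direction of their SI to COL difference, but their order among the SI libraries was not the same. Capitals mark matches on either strand to the letters TATAAA for the TATA box, the letters CCAAT for the CCAAT-box motif, the letters GGGCGG for the GC-box motif, the letters TGANTCA for the AP-1 motif and the letters CTTTGA for the core of the TCF motif, printed 5′ to 3′ on the minus strand. The windows are chr6:94700146-94700395 for Lrig1 and chr3:129755323-129755572 for Egf, which held no match.
Lrig1: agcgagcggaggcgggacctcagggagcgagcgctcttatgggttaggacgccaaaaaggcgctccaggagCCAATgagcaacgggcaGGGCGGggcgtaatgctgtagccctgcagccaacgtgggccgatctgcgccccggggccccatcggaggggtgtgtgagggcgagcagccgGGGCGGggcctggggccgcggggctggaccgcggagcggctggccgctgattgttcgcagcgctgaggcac
Egf: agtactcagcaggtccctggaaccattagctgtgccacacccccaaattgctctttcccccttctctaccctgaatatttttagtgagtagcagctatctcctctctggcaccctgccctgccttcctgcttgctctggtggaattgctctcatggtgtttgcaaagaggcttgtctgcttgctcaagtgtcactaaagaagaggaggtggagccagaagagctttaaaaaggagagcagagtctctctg

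The Lrig1 window held 1 CCAAT-box match and 2 matches to the GC-box motif and was 71.6% G and C, whereas the Egf window held none of the 5 motifs and was 50.4% G and C. Of the 32536 windows of this length in the RefSeq table, 33.8% held the CCAAT-box motif, 33% the GC-box motif, 12.3% the TATA box, 6.73% the AP-1 motif and 13.9% the TCF core, and the median content of G and C was 52.4%. The 2 windows thus had no motif match in common. A match is a description of the letters and not a site of binding.

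The ligands other than Egf were not past the threshold. Hbegf, which encodes a heparin-binding ligand, was at 70.0, 17.8, 17.7 and 30.03 CPM in SI1 to SI4 and at 15.4, 10.8, 7.89 and 19.5 CPM in COL1 to COL4. SI was higher in all 4 mice, but COL4 lay above SI2 and SI3, and SI1 was far above the other libraries. The log2FC was 1.34 (SE 0.47, adjusted p = 0.0537, edgeR). With the donor mouse as a block Hbegf was past the threshold (adjusted p = 0.0281), as it was without SI2, SI3 or COL4 (adjusted p = 0.0299, 0.0381 and 0.0464, edgeR). Without SI1 the log2FC was 0.72.

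Ereg had few counts, 27 to 57 in the SI libraries and 11 to 39 in those of COL. Its level was 2.17, 2.36, 1.37 and 2.61 CPM in SI1 to SI4 and 0.32, 1.18, 0.37 and 0.82 CPM in COL1 to COL4, with every SI library above every COL library. The log2FC of 1.67 (SE 0.61) did not reach the threshold (adjusted p = 0.0581, edgeR). Ereg was called in 6 of 21 alternatives. Among these were DESeq2 (adjusted p = 0.0156), limma-voom (adjusted p = 0.0243) and edgeR without COL2 (adjusted p = 0.0244). In edgeR with the donor mouse as a block Ereg was not called (adjusted p = 0.0589). Areg, its neighbour on chromosome 5, overlapped between the tissues. Its level was 3.67, 3.50, 11 and 1.33 CPM in SI1 to SI4 and 7.39, 8.83, 2.73 and 4.77 CPM in COL1 to COL4, so that the spread within each tissue exceeded the difference between them. Its log2FC was -0.28 (SE 0.60, 95% CI -1.60 to 1.04, adjusted p = 0.767, edgeR). Only mouse 3 had more Areg in SI than in COL.

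Tgfa was at 28.6, 9.85, 18.2 and 18.0 CPM in SI1 to SI4 and at 11.5, 6.28, 16.7 and 17.2 CPM in COL1 to COL4. SI was higher in all 4 mice, by 0.07 to 1.31 on the log2 scale, but the ranges overlapped and the direction turned with scaling by library size alone (log2FC -0.28). With TMM the log2FC was 0.53 (SE 0.39, 95% CI -0.33 to 1.39, adjusted p = 0.348, edgeR). Btc, also on chromosome 5, was at 1.83 to 4.62 CPM in SI and 2.17 to 5.57 CPM in COL, with a log2FC of -0.49 (SE 0.46, 95% CI -1.50 to 0.53, adjusted p = 0.467, edgeR).

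The ligands were ordered by their level per kb of exon. In SI, Hbegf stood first at 7.01 ± 5.13 CPM per kb, followed by Areg at 4.01 ± 3.47, Tgfa at 2.88 ± 1.18, Btc at 0.63 ± 0.28, Ereg at 0.52 ± 0.13 and Egf at 0.096 ± 0.10 (SD, n = 4). In COL, Areg stood first at 4.88 ± 2.24 CPM per kb, before Hbegf at 2.78 ± 1.06, Tgfa at 1.99 ± 0.79, Btc at 0.88 ± 0.31, Egf at 0.58 ± 0.17 and Ereg at 0.16 ± 0.098. Neighbours in these orders overlapped, except that in SI Tgfa lay above Btc and Ereg above Egf, and in COL Egf above Ereg. The order depended on the length used. With the longest transcript, Tgfa stood before Areg in SI and Egf before Btc in COL, Areg was above Hbegf in 2 of the 4 COL libraries, and Ereg was above Egf in 3 of the 4 SI libraries. Within a library, Hbegf exceeded Egf 15.2- to 765-fold in SI and 2.80- to 6.63-fold in COL, the upper bound of SI resting on the 2 Egf counts of SI4. The ratios of Tgfa to Egf, of Ereg to Areg and of Hbegf to Tgfa overlapped between the tissues.

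**Figure D3:**
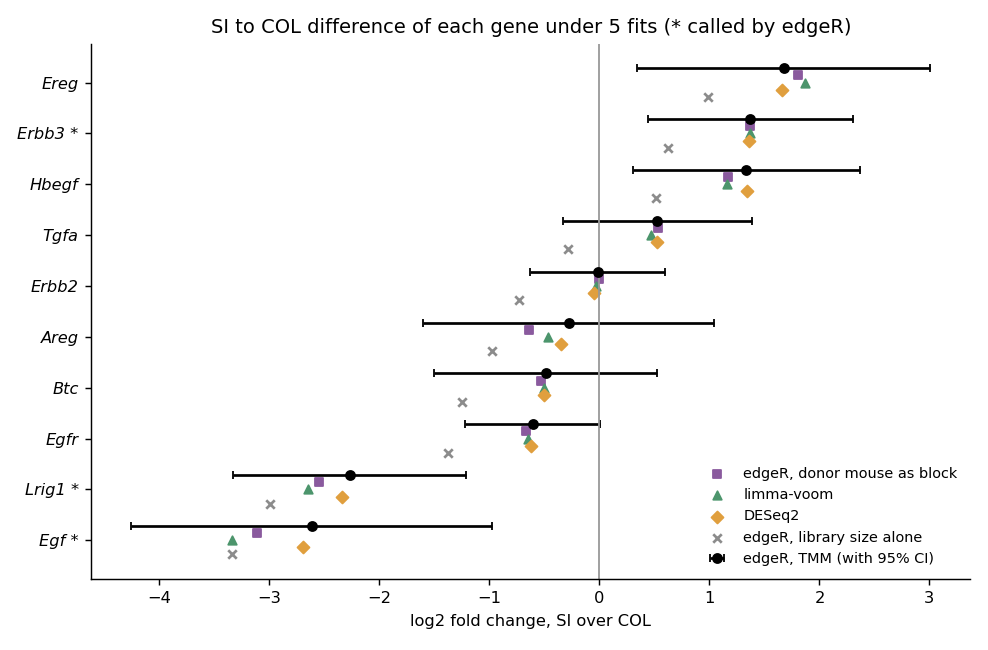
Log2 fold change of SI over COL for the 10 genes under 5 fits; black circles with 95% CIs are edgeR's test with TMM, and asterisks mark the 3 genes it called. Lrig1 and Egf stay below 0 in all 5.

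Within SI, the levels of several family genes followed the villus enterocyte markers. The markers were highest in SI1, followed by SI4, SI2 and SI3. Erbb3, Egfr, Hbegf and Erbb2 had the same order, although Erbb2 differed little between SI4 and SI2, and Hbegf between SI2 and SI3, and Lrig1 had the exact reverse order. Among all genes tested, 7.74% had the order of the markers and 7.36% its reverse in SI. The 11 immune markers had the same order in their sum, from 113.9 CPM in SI1 to 44.1 CPM in SI3, and the order also sets the 2 female libraries of low mitochondrial share, SI1 and SI4, above the 2 male libraries of high share. These orders rest on 4 libraries and were not tested, and in bulk RNA fewer cells of a type and less RNA per cell cannot be told apart. In COL, where villus markers were near absent, 1 family gene, Btc, had their order. Of all genes tested, 1.75% had that order and 1.38% its reverse in COL.

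**Figure D4:**
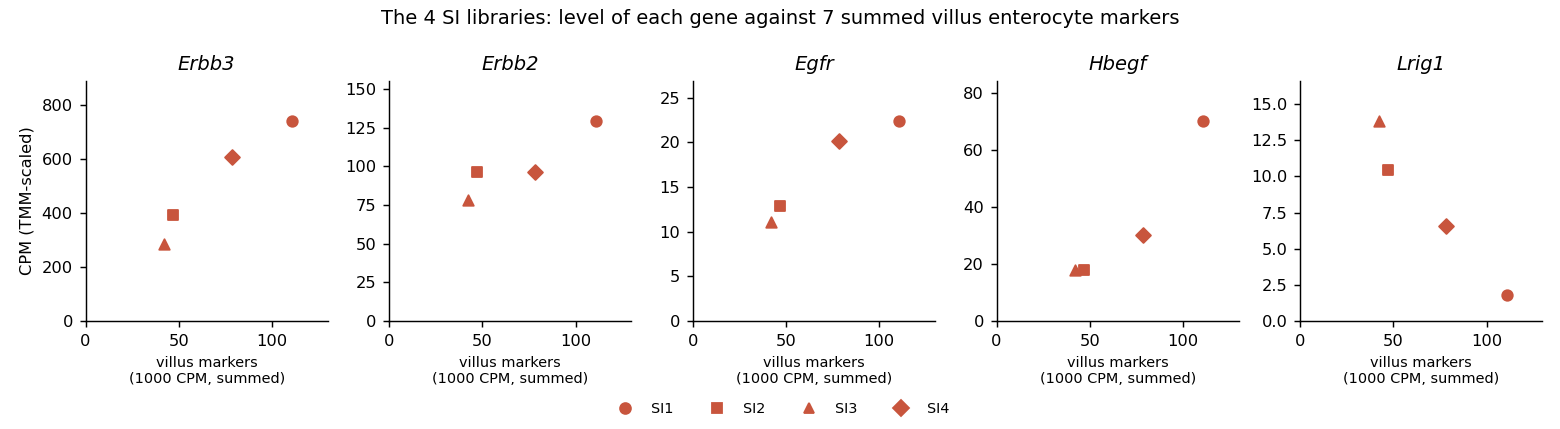
CPM of 5 genes in the 4 SI libraries (y axis, linear from 0) against the summed CPM of 7 villus enterocyte markers (x axis, in units of 1000 CPM). Erbb3, Erbb2, Egfr and Hbegf were highest in SI1, the library with the highest marker sum, and Lrig1 was lowest there, at 1.81 CPM.

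The 3 called genes kept their direction when libraries of like mitochondrial share were compared. For Lrig1 the log2FC was -1.77 among the 4 libraries of high share and -3.22 among the 4 of low share (adjusted p = 0.0166 and 0.0156, edgeR). For Egf it was -2.28 and -3.39 (adjusted p = 0.108 and 0.0438), and for Erbb3 1.17 and 1.44 (adjusted p = 0.125 and 0.0162). Hbegf was at 0.35 and 1.85, and Egfr at -1.10 and -0.31, neither past the threshold. Each of these comparisons rests on 2 SI and 2 COL libraries.

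None of the 10 genes was called between male and female mice in edgeR with tissue in the model, where 5 of all genes were (0.0345%). At an unadjusted p below 0.05 there was 1, Hbegf, which was lower in male mice. Its log2 change was -1.20 (SE 0.32, unadjusted p = 0.00338 and adjusted p = 0.861, edgeR). The fit treated the SI and COL libraries of a mouse as independent, so its SE and p-values take no account of their shared origin. With few mice of each sex, the lack of calls does not show that the sexes are alike. A difference between the sexes in the SI to COL change was called for 0 of the 10 genes and for 0% of all genes in edgeR's interaction test, with 0 family genes at an unadjusted p below 0.05 and 1, Lrig1, with the donor mouse as a block (unadjusted p = 0.025, adjusted p = 0.776).

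Of the remaining receptor and ligands of the system, Nrg4, a neuregulin that binds ERBB4, was the single gene to pass the filter. Nrg4 was at 4.08, 4.83, 9.84 and 3.53 CPM in SI1 to SI4 and at 0.85, 0.99, 1.71 and 1.34 CPM in COL1 to COL4, without overlap. Its log2FC was 2.17 (SE 0.48, adjusted p = 0.00566, edgeR). Its receptor gene Erbb4 had 0 to 26 counts per library, Nrg3 had 0 to 44, Nrg1 0 to 10, Nrg2 0 to 5 and Epgn 0 or 1. Transcripts of Nrg1 and Nrg2, which encode ligands of ERBB3 and ERBB4, were therefore barely detected in these crypts.

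Of the 11 genes for the shedding of ligands, 9 were tested, and 4 were called, all higher in COL, against 12.9% of all genes called higher in COL. The median log2FC of the 9 was -1.19. Of the 9, 5 were not past the threshold, and 4 had a log2FC above 0. Among the latter were the metalloproteases Adam10 (0.74, adjusted p = 0.083, edgeR) and Adam17 (0.64, adjusted p = 0.174, edgeR). Both were higher in SI in all 4 mice. Rhbdf1, which encodes an inactive rhomboid that guides the sheddase ADAM17, was at 1.54 to 5.80 CPM in SI and 11.4 to 18.5 CPM in COL, a log2FC of -1.88 (SE 0.42, adjusted p = 0.00637, edgeR). The metalloproteases Adam15 and Adam9 had log2FC values of -1.39 and -1.23 (adjusted p = 0.00553 and 0.0113). Rhbdl3, a rhomboid-like gene, had 0 to 3 counts per SI library and was at 2.55 to 2.89 CPM in COL. Of the 9 tested genes, 4 had SI and COL values that did not overlap, against 33.5% of all genes tested. They were the 4 called genes, which were named because they were called.

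Among 20 genes that restrain the receptors or govern their turnover, 2 were called higher in SI and 4 higher in COL. The remaining 14 were not past the threshold (median log2FC of the list 0.16). With 6 of 20 called, the list was close to the transcriptome, where the share called was 28.4%. Lrig3, a paralog of Lrig1, changed in the same direction as Lrig1, from 12.5 to 18.3 CPM in SI to 35.3 to 60.4 CPM in COL (log2FC -1.57, SE 0.26, adjusted p = 0.00104, edgeR). The other paralog, Lrig2, was not past the threshold (log2FC 0.24, adjusted p = 0.578, edgeR). Ptprk, a receptor phosphatase, Socs5 and Sh3kbp1, which act in receptor breakdown and endocytosis, were likewise higher in COL, with log2FC values of -1.26, -2.92 and -1.94. Eps15, an endocytic adaptor, and Socs4 were higher in SI, by 1.42 and 1.25.

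Against 28.4% of all genes tested, 7 of 20 adaptors and relay genes were called, 5 higher in SI and 2 higher in COL (median log2FC 0.36). Of these, Gab1 was not past the threshold with the donor mouse as a block (adjusted p = 0.038 without and 0.0788 with it, edgeR). Vav2, a guanine nucleotide exchange factor that binds activated receptors, was at 42.1 to 60.8 CPM in SI and 6.39 to 9.11 CPM in COL, a log2FC of 2.64 (SE 0.26, adjusted p = 3.14e-05, edgeR). Its paralog Vav3 changed in the opposite direction, with a log2FC of -2.58. The regulatory PI3-kinase subunits also parted, with Pik3r2 higher in SI (log2FC 1.33) and Pik3r3 higher in COL (-1.75), while Pik3r1 was not past the threshold (-0.42, adjusted p = 0.393, edgeR). The RAS exchange factor Sos2 and the adaptor Crkl were higher in SI, by 0.97 and 1.103.

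Of 16 early response targets, 14 were tested and 5 called, 2 higher in SI and 3 higher in COL, against 28.4% of all genes tested. The ETS factor Etv5 was at 0.46 to 1.75 CPM in SI and 18.8 to 46.4 CPM in COL, and its relative Etv4 at 0 to 0.61 and 2.30 to 9.88 CPM. Dusp6 and Fos had log2FC values of 2.36 and 2.05 toward SI, and Fosl1 one of -3.90 on at most 5 counts per SI library. The targets of ERK signalling on this list thus did not move in 1 direction.

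**Figure D5:**
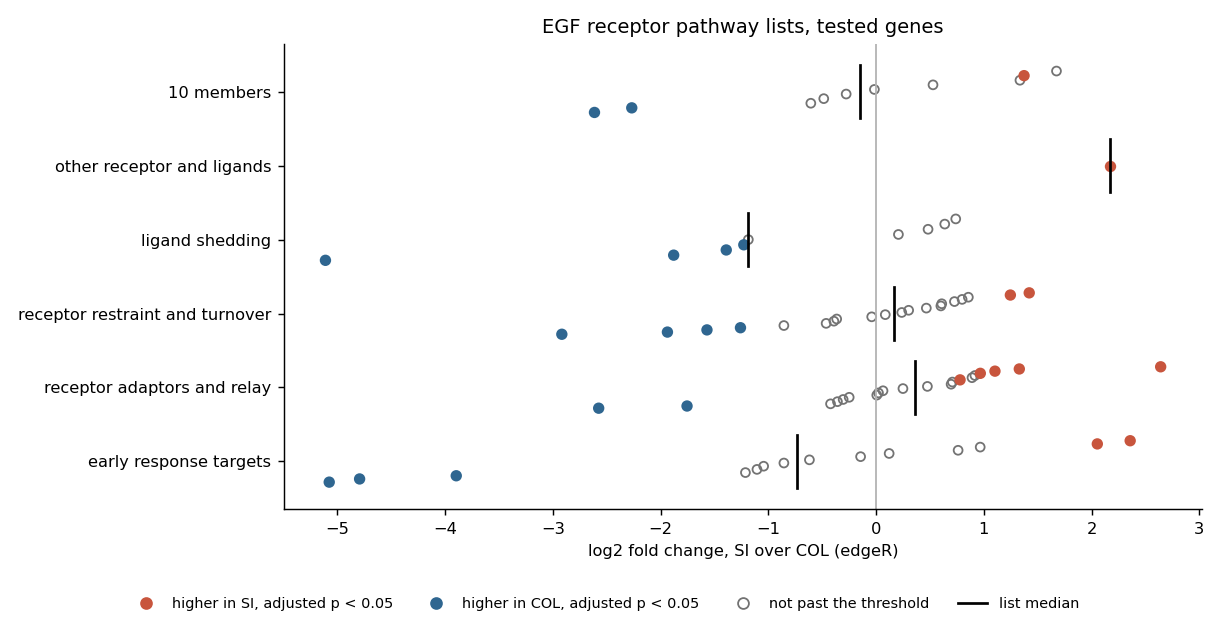
Log2FC of SI over COL (x axis) for the tested genes of each list; filled points were called in edgeR (red, higher in SI; blue, higher in COL), open points were not, and vertical bars are list medians. All 4 called genes of ligand shedding lie on the COL side, and the 10 genes and the lists of restraint, adaptors and early response have calls on both sides.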

How the data were processed

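Crypts were taken from the SI and colon of 4 mice, giving 8 libraries. Per the labels and the methods, paired-end reads were trimmed (Trimmomatic 0.36), aligned to mm10 and counted per gene (STAR 2.5.2b). The processing notes list mm9 beside mm10. Annotation release and strand setting are not given in the sources used here. The authors deposited raw counts of 45706 Ensembl genes, without normalization. Total counts ranged from 15969428 to 32908060, and counting error weighs most on Egf and Ereg, with the fewest counts. Symbols, coordinates and exon lengths (union of exons) came from GENCODE vM21 (GRCm38), which holds 45143 of the genes. Upstream windows came from the RefSeq table for GRCm38.p6, in which 7 of the 10 family genes were found.

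Counts were normalized by TMM and tested with edgeR 4.0.16 (glmQLFit and glmQLFTest, R 4.3.3) on the 14491 genes kept by filterByExpr (minimum count 10, minimum total 15), with tissue as the one term. The methods name limma for this comparison. The SE of a change was its unshrunk estimate divided by the square root of F. Changes within mice used log2 of CPM plus 0.1. Sex was added as a term, or with its interaction. The 21 alternatives comprised DESeq2 1.42.0, limma-voom 3.58.1, the donor mouse as a block in edgeR and limma-voom, other scalings and filters, the mitochondrial share as a covariate or to split the libraries, each library left out, and a test against a log2 change of 1.

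SI and COL libraries are paired by donor mouse in the labels. Deviations from the tissue mean correlated across genes at -0.24, 0.39, -0.079 and 0.33 within the 4 mice. Every pair of libraries of a tissue differed by more than sampling noise. Counts were simulated for the 14491 genes with the same dispersion of 0.245 for every gene, and 200 genes were changed. On them edgeR's test recovered 31 of 100 genes changed 4-fold and 4 of 100 changed 2-fold, with 2 false calls. In the data 4116 genes were called, so the simulation differs from the data and these shares do not measure the recovery there.

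The family and the gene lists were chosen with earlier results of these data known. Genes named from the lists are all of the other receptor and ligands, the called genes with the largest changes (at most 4 in each direction per list), and the 2 most abundant markers of each cell type. Lgr5, Ascl2, Smoc2, Ang4, Pla2g2a, Lum, Adam10, Adam17, Lrig2, Pik3r1 and Gab1 fall outside this rule and were chosen after their values were seen.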

Additional observations from a re-analysis of the deposited data

How the results depend on the processing

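Of the 3 called genes, Lrig1 was past the threshold in all 21 alternatives, Egf in 17 of 20 and Erbb3 in 13 of 21, each with its direction kept. Egf could not be tested with a filter of 10 counts in every library. With the donor mouse as a replicate block in edgeR, 4072 genes and 3 family genes were called. There the block changed the call of Erbb3 (log2 fold change 1.37, adjusted p = 0.0774 by edgeR's test) and Hbegf (1.17, adjusted p = 0.0281) and of no other family gene. In limma-voom with the block, Erbb3 was called (adjusted p = 0.0365). The count of family genes called was 5 with DESeq2, with the replicate block in limma-voom and with the mitochondrial share as a covariate (5121, 4707 and 5542 of all genes, against 4116), and 1 with the libraries of high mitochondrial share and with the test against a log2 change of 1. Scaling by library size alone called 1115 genes higher in SI and 4788 higher in COL, against 2253 and 1863. The libraries of high mitochondrial share gave 2264 genes (1381 higher in SI, 883 higher in COL), and the test against a log2 change of 1 gave 2072 (1089 and 983). With each library omitted in turn, 3167 to 4480 genes and 2 to 4 family genes were called.

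The sign changed for 3 genes that were not past the threshold. Erbb2 had a log2 fold change of 0.001 with the mitochondrial share as a covariate, 0.264 with the libraries of low share, and 0.023, 0.112 and 0.202 without SI2, SI3 and COL2 (range -0.143 to 0.202 with each library omitted). Areg ranged from -1.033 to 0.008 in the same way, and Tgfa was at -0.282 with scaling by library size alone. The cause was not tested. Depth limits Egf and Ereg most, with as few as 2 and 11 counts in a library.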

Other observations

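The COL libraries of Lrig1 spanned 36.5 to 41.7 CPM although their mitochondrial share ranged from 4.83% to 50.8%, and those of Egfr spanned 23.4 to 27.5 CPM. Erbb3 varied far more across the same libraries, from 103.6 to 299.1 CPM. In SI, Lrig1 was at 10.45 and 13.8 CPM in the libraries of high share (SI2, SI3) and at 1.81 and 6.59 CPM in those of low share (SI1, SI4).

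Of the stromal markers, Pdgfrb was at 0.48 to 1.145 CPM in SI and 4.75 to 11.4 CPM in COL (log2 fold change -3.45, adjusted p = 0.000259, edgeR), and Vim was at 2.79 to 5.56 and 3.14 to 7.18 CPM. Lum had no count in 7 of the 8 libraries. Of the immune markers, Ptprc was at 11.2 to 23.6 CPM in SI and 5.67 to 11.96 CPM in COL, and Cd3e at 7.37 to 29.9 and 1.74 to 11.2 CPM.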
